A study of Homo sapiens with 5 samples.

Results

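This account covers 10 autosomal germ-cell genes, DAZL, DDX4, MAEL, SYCP1, TDRD1, PIWIL1, PIWIL2, RNF212, SOHLH2 and BRDT, in human induced pluripotent stem cells (iPSCs). A window belonged to a gene if the deposited table named it with that gene's symbol, or if it overlapped the gene extended by 1500 bases on both sides. This gave 93 windows of 1000 bases of 288391 in the table, between 3 for MAEL and 19 for RNF212. Methylation was measured by reduced representation bisulfite sequencing (RRBS), which reads DNA cut at CCGG sites and therefore favours CpG-rich stretches. Each window holds the methylated and total CpG calls of 1 library, and its level is the percentage of calls that were methylated. A middle level averages over the CpGs and DNA molecules of a window, and single CpGs were not analysed here.

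All 5 libraries came from the iPSC line 201B7 (HPS0063), an established line that the labels give as wild type. The cells were exposed for 48 h, with 1 library per condition. The paper's screen used iPSCs carrying the mCherry-MBD-nls reporter, and its RRBS methods do not say whether the RRBS cells carried it. The vehicle control received 0.1% DMSO. The other 4 received 1 nM etoposide (a topoisomerase II inhibitor), 1 µM propyl gallate (an antioxidant food additive), 1 µM theophylline (a methylxanthine and phosphodiesterase inhibitor) or 10 nM 5-aza-dc (5-aza-2′-deoxycytidine, a cytidine analogue that traps DNA methyltransferases). The methods state that all chemicals were dissolved in DMSO. The shared windows held between 188844850 and 228919184 calls per library, with a median of 398 to 499 calls per window. With a single library per condition there is no replicate error. Intervals are 95% Wilson intervals, which treat CpG calls as independent and cover counting error only. Fisher's exact test also treats the calls as independent, and compares pairs of libraries, not conditions.

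Germline genes are needed for germ cells and meiosis and are kept off in most other cells. In mammals many of them are known to carry CpG-rich promoters that gain DNA methylation in the early embryo, an exception among CpG-rich promoters, most of which stay unmethylated. In mouse embryonic stem cells a Polycomb complex, PRC1.6, binds many of these promoters through E2F6, which reads GCGGGA-type sites, and through MGA with MAX, which read CACGTG. Expression was not measured in the libraries analysed here, so the levels below describe methylation and not whether a gene was silent.

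Upstream sequences of 5 of the genes are shown because their methylation covered the whole range from under 1% to 97.0%. MAEL was also chosen for its pair of RefSeq starts, the upstream start under 1% and the downstream start at 90.3%. Each run is the 250 bases before a RefSeq start (GRCh38.p14), 5′ to 3′ on the strand of the gene, in lower case with every CpG in capitals. A CACGTG site therefore reads caCGtg.
MAEL, upstream start, plus strand, chr1:166975332-166975581: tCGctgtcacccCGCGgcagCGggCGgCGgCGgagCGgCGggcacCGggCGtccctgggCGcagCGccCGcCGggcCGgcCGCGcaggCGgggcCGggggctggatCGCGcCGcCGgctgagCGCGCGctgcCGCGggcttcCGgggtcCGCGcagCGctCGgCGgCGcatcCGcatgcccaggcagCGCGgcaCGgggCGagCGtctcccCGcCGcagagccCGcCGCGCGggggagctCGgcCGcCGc
MAEL, downstream start, plus strand, chr1:166989030-166989279: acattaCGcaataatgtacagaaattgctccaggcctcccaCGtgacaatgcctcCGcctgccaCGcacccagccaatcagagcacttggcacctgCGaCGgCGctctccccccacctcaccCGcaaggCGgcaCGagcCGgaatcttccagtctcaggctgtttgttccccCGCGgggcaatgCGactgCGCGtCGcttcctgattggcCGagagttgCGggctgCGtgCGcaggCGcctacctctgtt
DAZL, minus strand, chr3:16605424-16605673: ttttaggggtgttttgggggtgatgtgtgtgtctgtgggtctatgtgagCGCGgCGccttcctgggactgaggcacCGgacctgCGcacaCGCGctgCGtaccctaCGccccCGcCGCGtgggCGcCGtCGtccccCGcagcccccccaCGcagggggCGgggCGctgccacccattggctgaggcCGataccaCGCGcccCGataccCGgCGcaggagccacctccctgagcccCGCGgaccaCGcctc
SYCP1, plus strand, chr1:114854613-114854862: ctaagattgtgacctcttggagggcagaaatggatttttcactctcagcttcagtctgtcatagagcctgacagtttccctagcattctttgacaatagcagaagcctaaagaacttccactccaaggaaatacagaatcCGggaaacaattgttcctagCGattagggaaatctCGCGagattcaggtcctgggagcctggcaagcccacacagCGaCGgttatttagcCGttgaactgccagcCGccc
BRDT, plus strand, chr1:91949121-91949370: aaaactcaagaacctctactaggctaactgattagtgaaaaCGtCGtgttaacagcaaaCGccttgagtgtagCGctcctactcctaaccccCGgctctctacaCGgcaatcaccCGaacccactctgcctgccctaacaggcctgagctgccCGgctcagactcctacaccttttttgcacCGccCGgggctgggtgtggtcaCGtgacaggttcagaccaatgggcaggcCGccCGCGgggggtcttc
RNF212, minus strand, chr4:1113565-1113814: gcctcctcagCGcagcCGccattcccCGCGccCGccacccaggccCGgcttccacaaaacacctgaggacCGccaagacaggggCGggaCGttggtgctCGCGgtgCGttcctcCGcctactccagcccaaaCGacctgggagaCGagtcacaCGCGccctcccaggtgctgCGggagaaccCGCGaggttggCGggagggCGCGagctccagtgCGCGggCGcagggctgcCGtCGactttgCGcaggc

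These runs hold 51 CpGs upstream of the first MAEL start and 22 upstream of the second, 28 for DAZL, 8 for SYCP1, 14 for BRDT and 29 for RNF212. The run with the most CpGs belonged to the start with the lowest methylation.

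Promoter windows were those overlapping 1500 bases before to 500 bases after the gene start. At the start given in the deposited table, 8 of the 10 genes had such a window, 10 windows in all, and DAZL and TDRD1 had none. The deposited DAZL start (chr3:16670306, minus strand) lies far from its RefSeq starts (16605423 and 16604790). RefSeq starts were therefore also used, which added 2 windows for DAZL and 1 each for MAEL and DDX4 but none for TDRD1. That addition was made after the values had been seen.

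Most of the germline promoters were highly methylated in the vehicle control, but not all. DAZL, DDX4, SYCP1, SOHLH2, BRDT and the downstream start of MAEL were at 81.2% to 97.0%, PIWIL1 and PIWIL2 had a promoter window at 46.7%, RNF212 was at 15.3% and the upstream start of MAEL was at 0.613%. The name under which these genes are often grouped, genes with methylated promoters, therefore held for some of them and not for RNF212 or the upstream MAEL start. The order of the libraries differed from gene to gene.

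**Figure D1:**
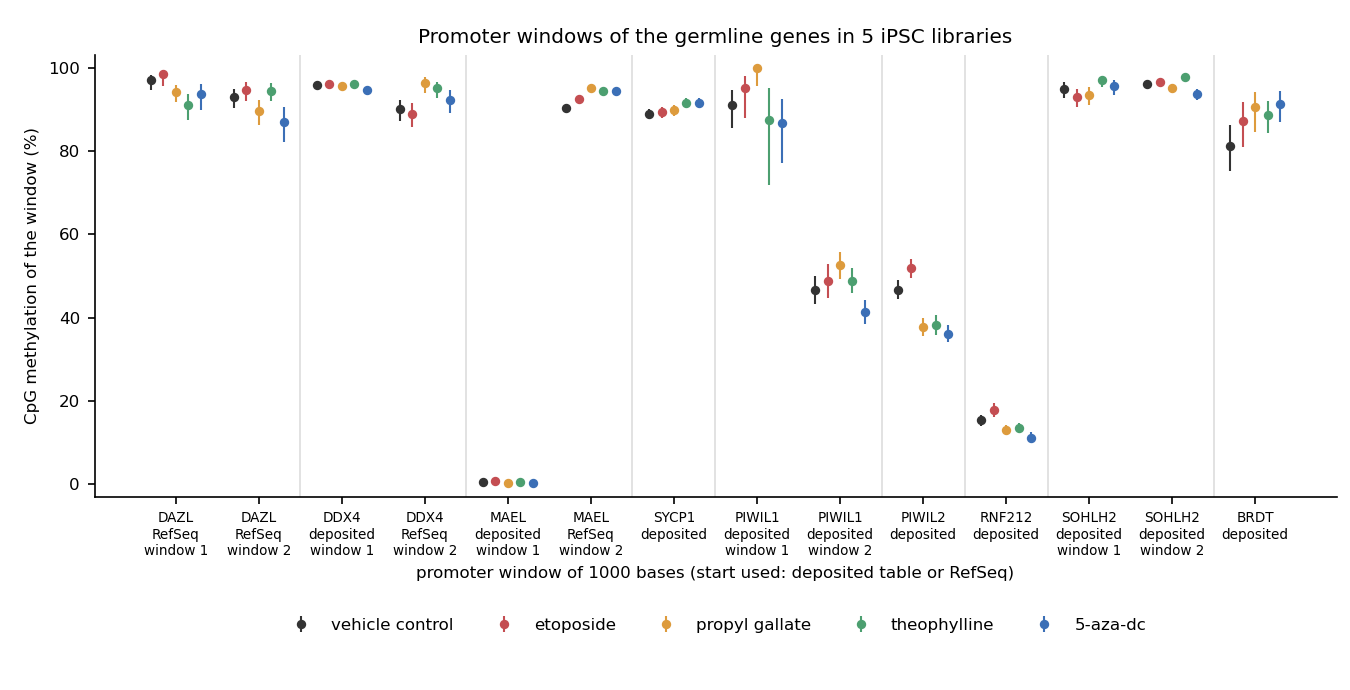
Methylation of the 14 promoter windows of 9 germline genes in the 5 libraries (y axis, % of CpG calls; bars, 95% Wilson intervals). DAZL, DDX4, SYCP1, SOHLH2 and BRDT sit above 80% in every library and the upstream MAEL window below 1%, whereas the PIWIL2 window lies between 36.1% and 51.9%.

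DAZL and DDX4 are RNA-binding proteins of the germ line, the first a translational regulator and the second the VASA DEAD-box helicase. DAZL (ENSG00000092345) had both RefSeq start windows in a CpG island. In chr3:16605001-16606000 the level was 97.0% (356 of 367 calls) in the vehicle control, 98.5% with etoposide, 94.2% with propyl gallate, 91.0% with theophylline and 93.6% with 5-aza-dc. In chr3:16604001-16605000 it was 92.9% (435 of 468 calls), 94.7%, 89.6%, 94.5% and 86.9% in the same order. Of these 8 differences from the vehicle control 1 passed an adjusted p of 0.01, -5.99 points (-9.71 to -2.54) with theophylline in the first window (Fisher's exact test, two-sided, Benjamini-Hochberg over all windows, adjusted p = 0.0073).

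DDX4 (ENSG00000152670) was almost level across the libraries upstream of its deposited start. The window that holds that start was not covered. In chr5:55736001-55737000, a CpG island shore, the level was 95.8% (1971 of 2058 calls) in the vehicle control, 96.0% with etoposide, 95.6% with propyl gallate, 96.1% with theophylline and 94.6% with 5-aza-dc, a spread of 1.55 points. The only DDX4 start in the RefSeq promoter table lies within the deposited gene, at chr5:55766885, and its upstream 250 bases hold no CpG. The window just after it, chr5:55767001-55768000, lies outside CpG islands. It was at 90.04%, 88.9%, 96.4%, 95.03% and 92.3% in the same order, and propyl gallate was higher by 6.34 points (2.99 to 9.55, adjusted p = 0.00454 by Fisher's exact test).

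MAEL, TDRD1, PIWIL1 and PIWIL2 belong to the piRNA pathway, in which small RNAs guide PIWI proteins against transposons in germ cells. MAEL (ENSG00000143194) is a component of the germ-cell RNA granule. Its upstream start lies in the island window chr1:166975001-166976000, which was at 0.613% (32 of 5222 calls) in the vehicle control, 0.674% with etoposide, 0.238% with propyl gallate, 0.627% with theophylline and 0.359% with 5-aza-dc. No library reached 1%, with upper limits between 0.437% and 0.986%.

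The downstream MAEL start, chr1:166989280, had the opposite state in an island of the same gene. Its window, chr1:166989001-166990000, was at 90.3% (3509 of 3884 calls) in the vehicle control, 92.5% with etoposide, 95.1% with propyl gallate, 94.4% with theophylline and 94.5% with 5-aza-dc. All 4 chemicals were above the vehicle control, by 2.16 points (0.827 to 3.47), 4.79 points (3.58 to 5.99), 4.04 points (2.72 to 5.31) and 4.14 points (2.90 to 5.37). The last 3 passed the test (adjusted p = 1.67e-11, 5.3e-07 and 1.24e-08), 5-aza-dc among them, while etoposide did not (adjusted p = 0.0148; all by Fisher's exact test).

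PIWIL1 (ENSG00000125207) and PIWIL2 (ENSG00000197181) encode PIWI proteins. The window that holds the PIWIL1 start was not covered, and the pair of windows around it differed. Upstream, chr12:130336001-130337000 was at 91.0% (142 of 156 calls) in the vehicle control, 95.1% with etoposide, 100% with propyl gallate (84 of 84 calls), 87.5% with theophylline (28 of 32 calls) and 86.7% with 5-aza-dc. With so few calls none of the differences passed the test.

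Just inside PIWIL1, the levels dropped in 2 neighbouring island windows. In chr12:130338001-130339000 they were 46.7% (389 of 833 calls) in the vehicle control, 48.7% with etoposide, 52.6% with propyl gallate, 48.8% with theophylline and 41.4% with 5-aza-dc, and no difference passed the test. In chr12:130339001-130340000, the lowest window of the gene, they were 29.2% (1112 of 3804 calls), 42.2%, 37.5%, 29.8% and 27.4%. Etoposide and propyl gallate were higher there by 13.0 points (adjusted p = 6.13e-26) and 8.24 points (adjusted p = 2.59e-12, both by Fisher's exact test), while theophylline and 5-aza-dc were at 0.531 and -1.87 points from the vehicle control and did not pass.

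PIWIL2 had the widest spread of the 5 libraries among the 14 promoter windows, in points. Its start lies in the island window chr8:22275001-22276000, which the deposited table assigns to the divergent transcript PIWIL2-DT. The level was 46.7% (900 of 1926 calls) in the vehicle control, 51.9% with etoposide, 37.8% with propyl gallate, 38.2% with theophylline and 36.1% (808 of 2237 calls) with 5-aza-dc.

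In that PIWIL2 window, 3 chemicals were lower than the vehicle control and etoposide was higher. The difference was -10.6 points after 5-aza-dc (-13.6 to -7.61, adjusted p = 6.41e-10 by Fisher's exact test), -8.97 with propyl gallate (-12.1 to -5.86, adjusted p = 1.69e-06) and -8.53 with theophylline (-11.8 to -5.26, adjusted p = 1.9e-05). Etoposide was 5.15 points higher (1.94 to 8.34), which missed the threshold (adjusted p = 0.0146; all by Fisher's exact test). The 5 libraries spread over 15.8 points. The median spread was 11.3 points over the 11768 windows whose mean level over the 5 libraries lay between 30% and 70%.

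TDRD1 (ENSG00000095627), a Tudor-domain protein that binds PIWI proteins, had no promoter window. The nearest window downstream of its start, chr10:114180001-114181000, was the lowest of the gene in the vehicle control, at 85.5% (1326 of 1550 calls). It was at 92.4% with etoposide, 91.1% with propyl gallate, 94.4% with theophylline and 89.1% with 5-aza-dc, all above the vehicle control. The first 3 passed the test (adjusted p = 2.84e-06, 0.0003 and 6.87e-11), and 5-aza-dc did not (adjusted p = 0.034; all by Fisher's exact test).

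SYCP1 and RNF212 act in meiosis, SYCP1 as the transverse filament of the synaptonemal complex and RNF212 as a RING-finger protein of crossover sites. SYCP1 (ENSG00000198765) was methylated at its start: the island window chr1:114854001-114855000 was at 88.9% (2249 of 2529 calls) in the vehicle control, 89.3% with etoposide, 89.8% with propyl gallate, 91.5% with theophylline and 91.6% with 5-aza-dc. The spread was 2.68 points and no difference passed the test, the smallest adjusted p being 0.0119 for 5-aza-dc, which was the highest of the libraries.

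RNF212 (ENSG00000178222) was mostly unmethylated at its start. The island window chr4:1113001-1114000 was at 15.3% (462 of 3010 calls) in the vehicle control, 17.8% with etoposide, 13.1% with propyl gallate, 13.5% with theophylline and 11.1% (235 of 2121 calls) with 5-aza-dc. The last differed by -4.27 points (-6.11 to -2.39, adjusted p = 0.00021 by Fisher's exact test), and the others did not pass. The order of the libraries was that of the PIWIL2 window at both ends, with etoposide highest and 5-aza-dc lowest.

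SOHLH2 and BRDT act on transcription in germ cells, the first as a basic helix-loop-helix factor and the second as the testis bromodomain protein that reads acetylated histones. SOHLH2 (ENSG00000120669) had both promoter windows outside CpG islands. Its start window, chr13:36214001-36215000, was at 96.0% (1310 of 1364 calls) in the vehicle control, 96.6% with etoposide, 95.1% with propyl gallate, 97.8% with theophylline and 93.7% with 5-aza-dc. The window before it, chr13:36215001-36216000, was at 94.95%, 93.0%, 93.5%, 97.0% and 95.5%, and no difference in either passed the test.

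BRDT (ENSG00000137948) was the least methylated of the highly methylated starts in the vehicle control and had few calls. Its window, chr1:91949001-91950000 in an island shore, was at 81.2% (156 of 192 calls) in the vehicle control, 87.3% with etoposide, 90.5% with propyl gallate, 88.7% with theophylline and 91.4% (212 of 232 calls) with 5-aza-dc. All 4 chemicals were above the vehicle control, by up to 10.1 points (3.61 to 16.9) with 5-aza-dc, and none passed the test (adjusted p = 0.0154 for 5-aza-dc by Fisher's exact test).

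**Figure D2:**
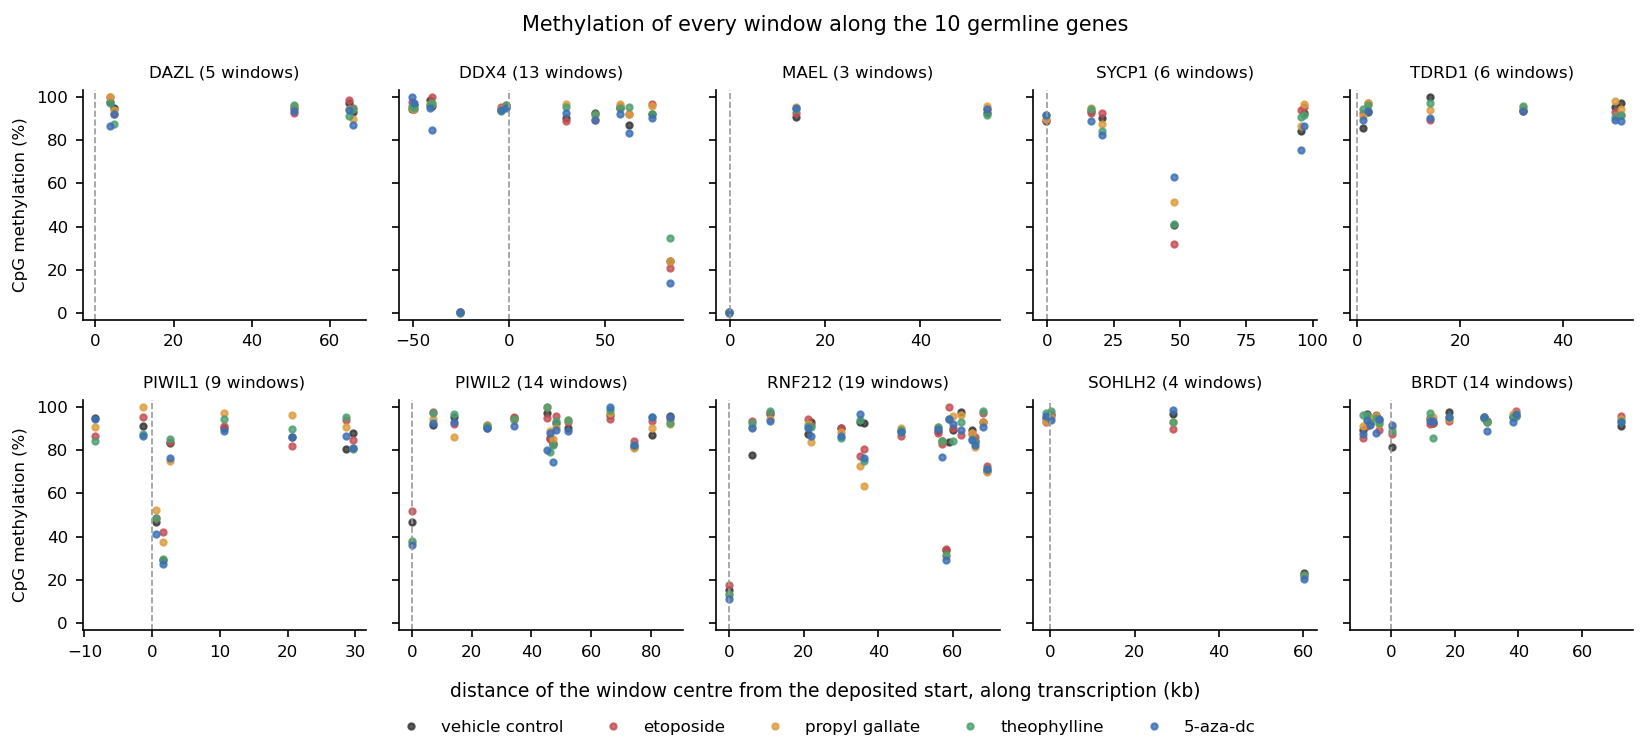
Methylation (y axis, %) of all 93 windows of the 10 genes against the distance of the window centre from the deposited start, in kb along the direction of transcription (dashed line, the start; colours, the 5 libraries). Levels stay near 90% along most of each gene and dip at the starts of MAEL, PIWIL1, PIWIL2 and RNF212.

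The germline promoters stood high among all promoters. Over 14465 protein-coding genes with a promoter window, the median of the mean promoter level in the vehicle control was 8.65%, and 22.2% of genes were at 50% or more. Of the 8 germline genes, 5 were at 50% or more (DDX4, SYCP1, PIWIL1, SOHLH2 and BRDT) with a median of 75.1%. PIWIL1 was counted there by the mean of its 91.0% and 46.7% windows. DDX4 lay above 98.6% of the protein-coding genes, SOHLH2 above 98.4%, SYCP1 above 90.1%, BRDT above 86.0%, PIWIL1 above 83.6%, PIWIL2 above 74.2%, RNF212 above 54.2% and MAEL above 9.12%. The DDX4 rank rests on an island shore window upstream of its start, because the window holding the start was not covered.

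Among all protein-coding genes the level depended on CpG islands: the median was 3.68% for the 11586 genes with an island window in the promoter and 84.5% for the 2879 without. At 50% or more were 10.6% of the former and 68.7% of the latter. DDX4, SOHLH2 and BRDT were among those without, where such levels are usual. The DDX4 and BRDT windows lie in island shores, however, and the window holding the DDX4 start was not covered. The BRDT starts are themselves CpG-dense, as given below. Of the germline genes with an island window, SYCP1 and PIWIL1 were at 50% or more, and MAEL, PIWIL2 and RNF212 were not. With RefSeq starts, 6 of 9 germline genes were at 50% or more, against 20.7% of 14938 genes. Counting only the window that holds the deposited start, the values were 3 of 6 germline genes and 13.3% of 12296 genes.

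**Figure D3:**
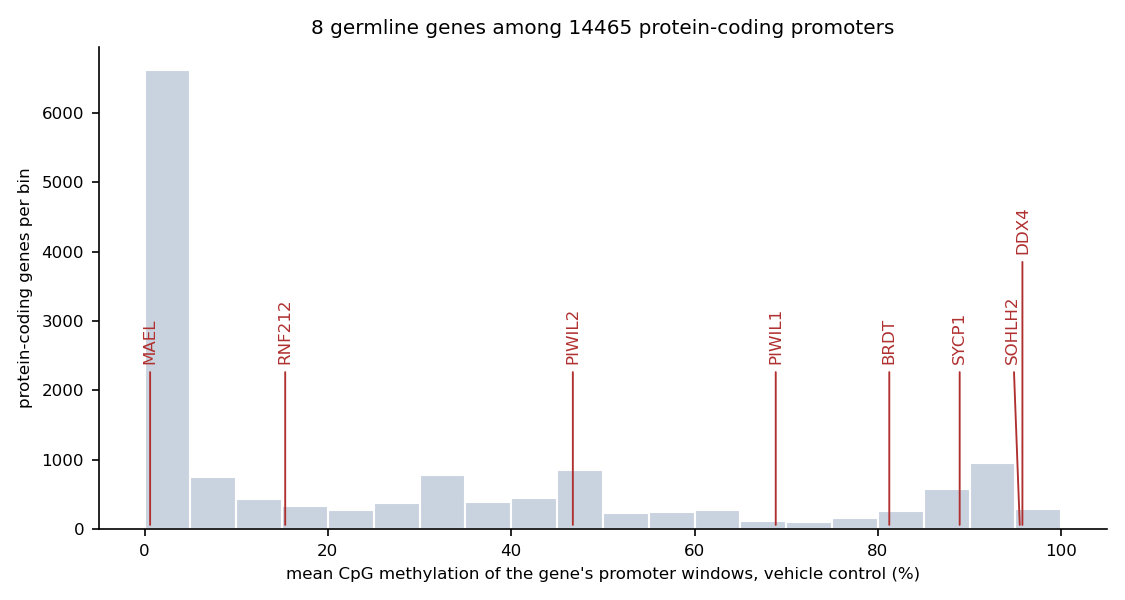
Distribution of the mean promoter methylation in the vehicle control over 14465 protein-coding genes (x axis, % in bins 5 points wide; y axis, genes per bin), with the 8 germline genes marked by lines. MAEL lies in the first bin and DDX4 and SOHLH2 in the last.

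CpG density was taken from the RefSeq sequences around the starts. RefSeq held 13 promoters of 9 of the genes (300 bases each, 250 before to 50 after the start), with no entry for PIWIL2. Their median CpG observed over expected, which sets the number of CpGs against that expected from the C and G content, was 0.808, against 0.579 over all 35116 promoters. Their median CpG number was 23 against 14, and their median GC content was 63.7% against 58.7%.

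Where the window holding a RefSeq start was covered, the CpG ratio could be set beside the level. Of 11601 such starts with a ratio of 0.75 or more, 3.63% were at 50% or more in the vehicle control, and the median was 0.983%. Of the 6 germline starts in that class, 4 were at 50% or more: DAZL at 97.0%, the downstream MAEL start at 90.3% and the pair of BRDT starts, which share 1 window, at 81.2%. The exceptions were RNF212 and the upstream MAEL start. In the class from 0.5 to 0.75, the germline starts were those of SYCP1, SOHLH2 and the second DAZL start, and 3 of 3 were at 50% or more, against 13.4% of 4370.

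**Figure D4:**
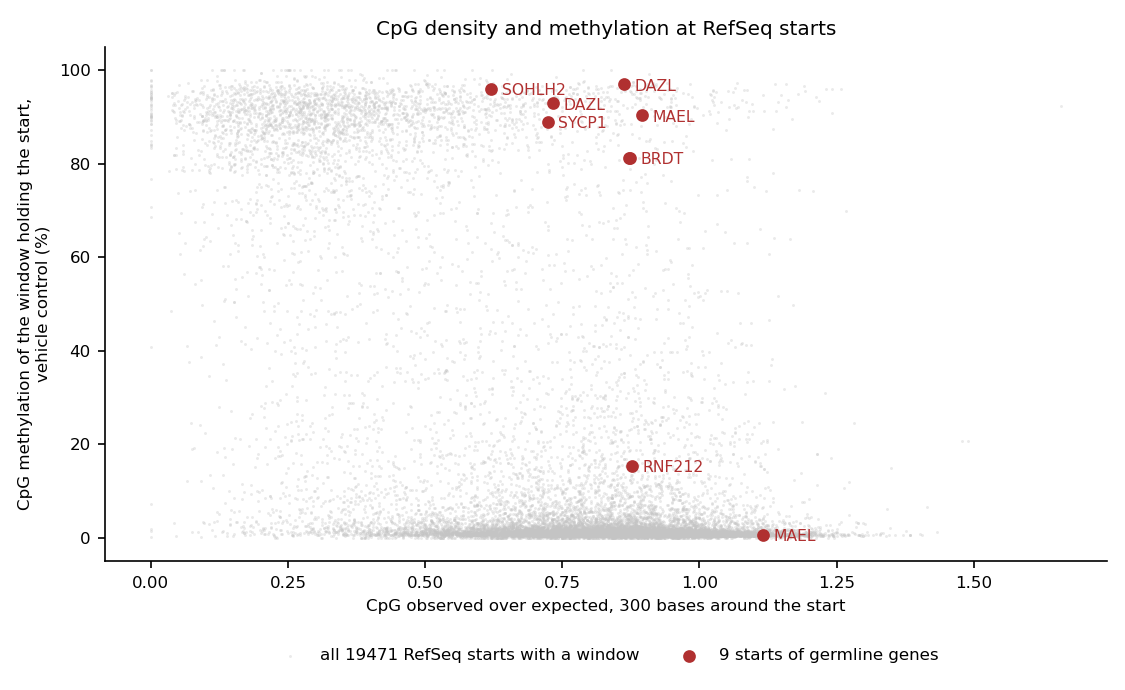
CpG observed over expected in the 300 bases around a RefSeq start (x axis) against the methylation of the window holding that start in the vehicle control (y axis, %), for 19471 starts (grey) and 9 starts of germline genes (red). DAZL, BRDT and the downstream MAEL start sit at the top among CpG-dense starts, where most grey points lie near 0%.

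The motifs read by the PRC1.6 proteins were searched on both strands of the 300 bases. CACGTG, which is its own reverse complement, occurred in 7 of 13 germline promoters, in BRDT, DAZL, MAEL, SOHLH2 and TDRD1, and in 7.26% of all promoters. CACGTGA (or TCACGTG), which contains it, occurred in 3 of 13, in BRDT and MAEL, and in 3.71% of all. GCGGGA (or TCCCGC) occurred in 6 of 13, in DAZL, MAEL, PIWIL1, RNF212 and SYCP1, and in 26.9% of all. Some of the promoters of 1 gene overlap and share a motif, and a match is a description of the sequence and not of binding. By gene, CACGTG and GCGGGA were each found in 5 of 9 and CACGTGA in 2 of 9. Each motif holds a CpG, and the germline promoters are denser in CpG, so the share over all promoters is not a matched background.

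Away from the starts, most windows of the genes were highly methylated. The 54 windows in gene bodies averaged 89.1% in the vehicle control, 89.4% with etoposide, 89.4% with propyl gallate, 89.6% with theophylline and 87.1% with 5-aza-dc. Mean body levels in the vehicle control ran from 76.2% in PIWIL1 to 96.9% in SOHLH2, which had 1 body window, and MAEL had none by this definition. Over all 288391 windows the mean levels were 79.4%, 79.9%, 79.9%, 80.3% and 78.3% in the same order of libraries.

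A few windows away from the starts were low, and the lowest of SYCP1, DDX4 and SOHLH2 are given here. SYCP1 had an intronic window at 40.5% (105 of 259 calls; chr1:114902001-114903000), which was at 31.9%, 51.1%, 41.2% and, in 59 calls, 62.7% with 5-aza-dc. None of these differences passed the test (smallest adjusted p = 0.0147 by Fisher's exact test). The lowest window assigned to DDX4, the island chr5:55712001-55713000, lies upstream outside the gene and was under 1% in every library. The lowest assigned to SOHLH2, chr13:36154001-36155000, lies past the end of the gene and was at 20.5% to 23.3% in the 5 libraries.

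Past the end of DDX4, the island chr5:55821001-55822000, singled out after its values were seen, separated 5-aza-dc from theophylline. It was at 24.1% (602 of 2502 calls) in the vehicle control, 20.7% with etoposide, 24.2% with propyl gallate, 34.6% with theophylline and 13.9% with 5-aza-dc. Theophylline was higher by 10.5 points (adjusted p = 3.73e-08) and 5-aza-dc lower by 10.2 points (adjusted p = 4.42e-17, both by Fisher's exact test). The window carries the DDX4 symbol but does not overlap the extended gene.

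Each chemical was then compared with the vehicle control over all germline promoters. The mean difference over the 8 genes was 2.09 points after etoposide (0.768 to 3.32), 0.569 with propyl gallate (-0.626 to 1.72), 0.156 with theophylline (-1.28 to 1.38) and -1.15 with 5-aza-dc (-2.35 to 0.0158). The interval left out 0 for etoposide, with 7 of 8 genes higher. The median difference over the germline genes was 1.42 points with etoposide, -0.284 with propyl gallate, 0.195 with theophylline and -1.03 with 5-aza-dc, against 0, 0.0116, 0.154 and -0.279 over all protein-coding genes. The latter were not matched by level: their median was 8.65% in the vehicle control, against 75.1% in the germline genes. Promoters near 0% leave little room for a difference. The propyl gallate median was opposite in sign to its mean, with 3 genes higher and 5 lower. The 5-aza-dc mean rested on single genes: it was 0.200 without PIWIL2 and -2.76 without BRDT, and 0.500 with all calls pooled. Without PIWIL2 the propyl gallate and theophylline means were 1.93 and 1.40, and without BRDT they were -0.668 and -0.884. The propyl gallate mean was also below 0 without PIWIL1 (-0.410).

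Over all 93 germline windows, 5-aza-dc was the only chemical whose interval left out 0. The mean differences were 0.383 points after etoposide (-0.127 to 0.888), 0.389 with propyl gallate (-0.123 to 0.892), 0.404 with theophylline (-0.106 to 0.9002) and -1.76 with 5-aza-dc (-2.42 to -1.20). Over all windows of the table the same means were 0.502, 0.548, 0.963 and -1.05. After 5-aza-dc 58 of the 93 windows were lower (62.4%), against 58.5% of all windows. Without the RNF212 windows the propyl gallate mean was 0.989. With all calls pooled the means were 1.93 for etoposide, 1.62 for theophylline and -3.13 for 5-aza-dc, and with at least 100 calls in every library the etoposide mean was 0.954.

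**Figure D5:**
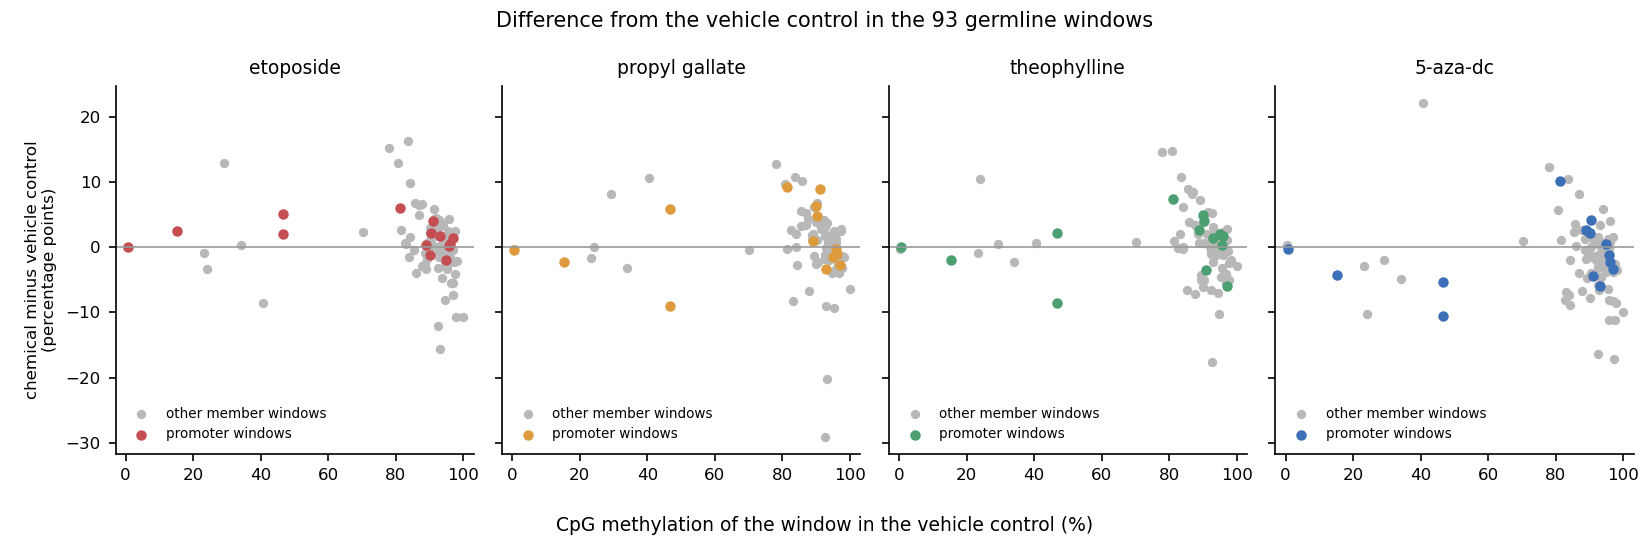
Difference from the vehicle control (y axis, percentage points) against the level in the vehicle control (x axis, %) for the 93 germline windows, 1 panel per chemical (coloured, the 14 promoter windows; grey, the others). After 5-aza-dc 58 windows lie below 0, and the single window past -25 points is the RNF212 window after propyl gallate.

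Windows of middle level and of high level were both lower on average after 5-aza-dc. In the 8 germline windows between 10% and 70% in the vehicle control, the mean difference was -2.22 points (-4.22 to -0.388) and 7 of 8 were lower. Over all 18365 windows of that level the mean was -1.39 points and 62.6% were lower. The exception among the germline windows was the SYCP1 intronic window. In the 58 windows at 90% or more the difference was -2.74 points (-3.61 to -2.04), against -2.09 over all such windows of the table. These windows were chosen by their vehicle control level, and the other 3 chemicals were at -0.947, -0.835 and -0.808 points there.

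Few germline windows were called between libraries. At an adjusted p below 0.01 together with 25 points or more of difference, etoposide, theophylline and 5-aza-dc each had 0 of 93 windows called and propyl gallate had 1. Over all windows, 0.193% were called after etoposide, 0.176% with propyl gallate, 0.174% with theophylline and 0.31% with 5-aza-dc. The called window, chr4:1077001-1078000 in an RNF212 intron, was at 92.5% (62 of 67 calls) in the vehicle control, 80.5% with etoposide, 63.4% (52 of 82 calls) with propyl gallate, 75.0% with theophylline and 76.2% with 5-aza-dc. Its propyl gallate difference of -29.1 points (adjusted p = 0.000653 by Fisher's exact test) was no longer called with the calls divided by 2.

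Without the minimum difference, 5-aza-dc called more germline windows lower than higher, as over all windows. After 5-aza-dc 13 of 93 windows were lower (background 10.4%) and 4 higher (3.55%). After etoposide 8 were higher (background 6.37%) and 4 lower (3.74%). After propyl gallate 10 were higher (6.55%) and 4 lower (3.71%), and after theophylline 8 were higher (8.13%) and 6 lower (2.86%).

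These called windows were spread over the genes. PIWIL1, PIWIL2, RNF212 and TDRD1 held the 8 that were higher after etoposide. BRDT, DDX4, PIWIL1, PIWIL2, RNF212, SYCP1 and TDRD1 held the 13 that were lower after 5-aza-dc, among them the start windows of PIWIL2 and RNF212. Dividing all calls by 2 left 3 or 4 called windows per chemical.

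The 5-aza-dc library was the lowest of the 5 in 37 of the 93 germline windows (39.8%), against 35.1% of all windows. Windows were also grouped by their mean level over the 5 libraries, 5-aza-dc included. The 5-aza-dc library was the lowest in 0 of 2 germline windows under 10%, against 27.8% of all windows of that level. It was the lowest in 3 of 3 between 10% and 30% (45.6%) and 4 of 5 between 30% and 70% (39.8%). Above that, it was the lowest in 6 of 23 between 70% and 90% (37.8%) and 24 of 60 from 90% upwards (34.6%). All 4 chemicals were above the vehicle control in 16 windows (17.2%, background 19.6%) and below it in 16 (17.2%, background 15.0%). The 4 differences of a window share the vehicle control library.

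A window of the first kind inside RNF212, singled out after its values were seen, was lowest in the vehicle control. In chr4:1107001-1108000 the level was 77.9% (226 of 290 calls) in the vehicle control, 93.3% with etoposide, 90.8% with propyl gallate, 92.5% with theophylline and 90.3% with 5-aza-dc. All 4 passed the test (adjusted p = 1.71e-05, 9.78e-05, 2.86e-05 and 0.000121 by Fisher's exact test). Of the 16 windows with all 4 chemicals above the vehicle control, BRDT, PIWIL2, RNF212 and TDRD1 held 3 each.

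Other germ-cell genes showed the same mixture of states. The levels of these lists were taken around deposited starts, which can lie far from RefSeq starts, as for DAZL. Of 20 further piRNA pathway genes, 17 had a promoter window, with a median of 82.7% in the vehicle control and 11 at 50% or more. The highest were PIWIL3 at 98.2%, TDRD6 at 97.3% and ASZ1 at 96.6%, and the lowest were TDRD7 at 0.882%, PIWIL4 at 1.02% and TDRD5 at 18.0%. PIWI family members therefore covered the range from PIWIL4 through PIWIL2 to PIWIL3.

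Of 30 further meiosis genes, 24 had a promoter window, with a median of 53.7% and 12 at 50% or more. STRA8, an inducer of meiosis, was at 97.9%, SYCP3, a lateral element protein of the synaptonemal complex, at 94.6% and SHOC1 at 92.3%. The cohesin RAD21L1 was at 0.254%, the helicase HFM1 at 0.629% and MEI4, needed for meiotic DNA breaks, at 2.93%.

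Of 15 further germ-cell regulators, 13 had a promoter window, with a median of 44.6% and 5 at 50% or more. The highest were NANOS2 at 93.2%, SPATA22 at 91.2% and DPPA3 at 88.9%, and the lowest were TFAP2C at 2.03%, PRDM1 at 5.06% and FIGLA at 5.60%. Of 14 widely expressed relatives, such as the AGO family, 2 were at 50% or more, AGO1 at 97.4% and TDRD3 at 94.9%. The AGO1 level is that around its deposited start, whereas the window holding its RefSeq start was at 0.79%. SND1, AGO3 and DDX21 were the lowest, at 0.460%, 0.745% and 1.13%.

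In the promoter windows of these lists, 5-aza-dc called 4 of 30 windows lower and 2 higher for the piRNA genes, 8 of 40 lower and 3 higher for the meiosis genes, 5 of 22 lower and 0 higher for the regulators, and 3 of 30 lower and 0 higher for the relatives, with the adjusted p of Fisher's exact test below 0.01. The background over all windows was the 10.4% lower and 3.55% higher given above. It is not limited to promoter windows, so these counts have no like background here. Pluripotency genes were listed as markers of the labelled cell type, but their promoter levels cannot check it, because low levels are common. Of 7 with a promoter window, 5 were under 10%, SOX2, SALL4 and LIN28A among them. Over all protein-coding genes with a promoter window, 51.0% were under 10%. ZFP42 was at 34.8% and POU5F1 at 90.5%. The deposited POU5F1 start lies away from its RefSeq gene, and NANOG had no promoter window.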

How the data were processed

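Genomic DNA of 5 libraries was read by RRBS. Per the labels, the authors used hg38 with FastQC (0.11.7), Trim Galore (0.5.0), Bismark (0.20.0), SAMtools (1.9) and methylKit (1.10.0). By the methods, they summed CpG calls in windows of 1000 bases, kept windows with at least 10 calls, removed those above the 99.9th percentile and scaled coverage between libraries. The deposited values are counts in the vehicle control. For etoposide, propyl gallate, theophylline and 5-aza-dc the authors had scaled the calls by 1.18, 1.09, 1.15 and 1.21 and rounded them, so the deposited numbers are treated as a score. The deposited β-value is the fraction methylated, which the authors took from those calls. The calls before scaling were recovered from the factors, and scaling them again gave back the coverage of 99.94% or more of the windows per library. Fisher's exact test, planned on deposited counts, was run on the recovered calls.

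Promoter windows overlapped 1500 bases before to 500 bases after the deposited gene start. Levels carry 95% Wilson intervals and differences a closed-form counting interval. Reads without molecular identifiers are not independent molecules, and a read can hold several CpG calls of the same window. The intervals and tests treated the calls as independent. Intervals therefore cover counting error only and can be too narrow, and p-values can be too small. Fisher's exact test (two-sided, Benjamini-Hochberg over 288391 windows) compared each chemical library with the vehicle control at an adjusted p under 0.01, with and without a difference of at least 25 points. The tests were checked on simulated data. Alternatives were coverage minima, pooled calls, medians, deposited levels, another reference, other promoter limits and each gene left out, and RefSeq starts (GRCh38.p14) added after the data were seen.

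The members and gene lists were chosen with earlier results of these data known. All 10 genes were described. Of the other lists, the 3 highest and 3 lowest promoters were named (1 is not reported here), and of windows away from promoters those past 25 points or highest or lowest in their gene. Sequences came from RefSeq (9 of 10 genes matched). The analysis used Python 3.11.15, numpy 2.4.6, pandas 2.3.3, scipy 1.17.1, numba 0.67.0 and matplotlib 3.10.9.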

Additional observations from a re-analysis of the deposited data

How the results depend on the processing

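With 1 library per condition, no result has a replicate check, and few calls limit PIWIL1, BRDT and DAZL most. No paired analysis was possible because each condition has 1 library. Of the alternatives to values that answer a comparison, 152 lay within the counting interval of the value reported or, for counts, near the count reported, and 25 did not. Where the interval held 0 the sign could turn. The propyl gallate promoter mean of 0.569 became -0.284 as a median of window differences, -0.404 in the start window and -0.0962 pooled. The theophylline mean of 0.156 became -0.340 pooled and -0.221 against the other 4 libraries. As a median it stayed above 0, at 1.07 over windows and 0.195 over genes. Over all germline windows, etoposide moved to 0.954 points with at least 100 calls in every library, and pooling all calls gave 1.93 for etoposide, 1.62 for theophylline and -3.13 for 5-aza-dc. Pooling took the 5-aza-dc promoter mean to 0.500. Leaving out each gene in turn, the promoter means ran from 1.52 to 2.48 after etoposide, -0.668 to 1.93 after propyl gallate, -0.884 to 1.40 after theophylline and -2.76 to 0.200 after 5-aza-dc. Over all germline windows they ran from 0.195 to 0.557, 0.0623 to 0.989, 0.184 to 0.555 and -1.95 to -1.59. A minimum difference of 10 points called 3 windows for each chemical, and no minimum called 12, 14, 14 and 17 in the order etoposide, propyl gallate, theophylline and 5-aza-dc. With calls divided by 2, these last counts were 3, 3, 4 and 4, and the 25-point count for propyl gallate was 0. With only the window that holds the start, 3 germline promoters were at 50% or more. The cause of these moves was not tested. RefSeq starts gave promoter means of 1.99, 1.18, 0.626 and -0.922 points.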
